A study of Mus musculus with 3 samples.

Results

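Of 31069 named genes on the array, 41 were taken as the mitosis and G2 phase genes. They were chosen by name, for their known function, with no threshold on their values. All 41 were found on the array, with 56 probes between them. Each gene was read by its brightest probe. Most were detected: 39 of the 41 were well above background on all 3 arrays, as were 15698 of the 31069 named genes. Of the 41, 33 lay above the median level of the detected probes on every array. That median is over all detected probes, so reading each gene by its brightest probe favours a high count.

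The RNA came from bone marrow-derived mast cells (BMMCs), which are mast cells that arise when marrow progenitors are cultured, of male mice on a C57BL/6 background, 12 weeks old by the sample labels, that lack Pafah2. Pafah2 is an intracellular lipase of the platelet-activating factor acetylhydrolase family that cuts oxidised acyl chains off membrane lipids. Cells of the first group received 300 nM of epoxides derived from omega-3 fatty acids (17,18-EpETE and 19,20-EpDPE, mixed at 2 to 3), cells of the second group 0.5 µM GW9662, which blocks the lipid-sensing nuclear receptor PPAR gamma, and cells of the third group the vehicle DMSO, and treatment lasted 12 h. All 3 cultures carry the Pafah2 deficiency and no array of cells with Pafah2 was analysed here, so no comparison here is about the loss of the gene. Each group is 1 one-colour array made from 200 ng of total RNA. There is no replicate, so no spread between cultures could be estimated, no test was possible and no p-value is given.

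The labels of the treated arrays are not settled. In the deposited value table, the epoxide column matches the scanner file of the GW9662 sample in 100% of rows, and the GW9662 column matches the scanner file of the epoxide sample in 100% of rows, within a tolerance of 0.001 of the quotient. The vehicle column matches its own file. The scanner files are used here as attached to the samples, so "epoxides" and "GW9662" mean the arrays labelled so. Under the labels of the value table every epoxide value below belongs to GW9662 and every GW9662 value to the epoxides, and the sign of each ratio of epoxides over GW9662 turns round.

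Signal well above background was found at 54.6% of the 43020 non-control spots with epoxides, 53.3% with GW9662 and 52.3% with vehicle, and no spot was saturated. A level is the log2 signal minus the log2 of the 75th percentile of its array, and a log2 ratio is the difference of 2 such levels. Repeated copies of a probe on an array differed with a median SD of 0.0558 (epoxides), 0.0553 (GW9662) and 0.0602 (vehicle) over 219 probes. The technical SD of a ratio that follows from these is 0.0821 for epoxides over vehicle. It is 0.0818 where GW9662 is set over vehicle and 0.0786 where epoxides are set over GW9662. These are errors of the spots alone, since culture, labelling and hybridisation were each done once. The Pafah2 probe read -0.08 with epoxides, 0.07 with GW9662 and 0.03 with vehicle; whether it lies in the deleted stretch is not given in the sources used here. Of 13 mast cell markers, 12 were above background on every array (all but Tpsab1), and their summed level was 9.28 with epoxides, 9.49 with GW9662 and 9.63 with vehicle. The progenitor and neutrophil precursor markers summed to 5.36, 5.51 and 5.39 in the same order, led by Cd34. Of these, Mpo read -5.42 with epoxides, -2.425 with GW9662 and -5.48 with vehicle, where it was not above background. For epoxides over GW9662, 0 of 7 measured in this list had a ratio above 0 (38.9% of all measured genes), with median -0.44. Basophil markers summed to 3.67, 3.68 and 3.69, led by Cd200r3. Of 11 macrophage and dendritic cell markers, 9 were above background with epoxides, 9 with GW9662 and 8 with vehicle. No eosinophil marker was above background. Of the lymphocyte markers, Cd3e read -1.40 with epoxides, -0.61 with GW9662 and -0.31 with vehicle, and Nkg7 read -0.30, 0.14 and 0.34 in the same order. Cd79a went another way, at -5.66, -1.77 and -6.00, and was above background with GW9662 only. The remaining lymphocyte markers were not above background on any array. Whether a change in the make-up of the cultures has a part in any difference below was not tested.

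G2 is the gap between the copying of DNA and mitosis. In that gap the kinase Cdk1, bound to cyclins A and B, is held in check until Cdc25 phosphatases release it; Aurora and Polo kinases, kinesins and the kinetochore then build the spindle and attach it to chromosomes, and the anaphase-promoting complex ends mitosis by marking cyclins and securin for destruction. The genes for these proteins are transcribed late in the cell cycle. In resting cells the DREAM complex holds them off, and in cycling cells B-MYB and FOXM1 turn them on through the same promoter element, the cell cycle genes homology region (CHR). The factor NF-Y binds CCAAT boxes upstream of it. BMMCs divide in culture, and their mitotic transcripts come from whichever share of the cells is passing through G2 and mitosis. In bulk RNA, fewer such cells and less of the transcript in each of them cannot be told apart.

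That shared promoter layout was looked for in the sequences from 250 bases before to 50 bases after each transcription start (RefSeq, GRCm38.p6). A window was held for 35 of the 41 genes. The letters searched were TTTGAA for the CHR, CCAAT for the NF-Y box, and GGCGGGAA and TTTGGCGC as E2F-like motifs, each on either strand. A TTTGAA and a CCAAT match shared bases in 1 case. The promoters below were picked to show how the layout repeats across genes of different roles, with 1 promoter that holds neither motif. Each line runs 130 bases from position -110, 5′ to 3′ along the strand of the gene, with TTTGAA or its reverse complement and CCAAT or its reverse complement in capitals.
Cdk1, the mitotic kinase, on chr10:69352893-69353022, minus strand: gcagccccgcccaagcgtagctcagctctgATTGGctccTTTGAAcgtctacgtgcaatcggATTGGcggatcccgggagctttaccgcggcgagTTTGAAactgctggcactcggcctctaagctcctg
Ccnb2, cyclin B2, on chr9:70421535-70421664, minus strand: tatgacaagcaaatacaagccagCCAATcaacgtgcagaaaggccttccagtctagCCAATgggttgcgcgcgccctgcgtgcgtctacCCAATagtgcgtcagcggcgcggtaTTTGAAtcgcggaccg
Top2a, topoisomerase II alpha, on chr11:99024170-99024299, minus strand: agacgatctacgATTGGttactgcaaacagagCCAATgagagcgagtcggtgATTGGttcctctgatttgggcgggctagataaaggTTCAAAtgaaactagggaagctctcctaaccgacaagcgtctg
Hmmr, a spindle protein, on chr11:40733418-40733547, minus strand: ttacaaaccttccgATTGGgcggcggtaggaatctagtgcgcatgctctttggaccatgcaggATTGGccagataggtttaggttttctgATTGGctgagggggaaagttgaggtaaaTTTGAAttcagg
Ube2c, the ubiquitin-conjugating enzyme of the anaphase-promoting complex, on chr2:164769819-164769948, plus strand: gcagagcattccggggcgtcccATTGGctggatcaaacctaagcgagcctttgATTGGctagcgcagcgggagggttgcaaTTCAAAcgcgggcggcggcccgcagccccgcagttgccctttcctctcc
Cdc20, the activator of that complex, on chr4:118437324-118437453, minus strand: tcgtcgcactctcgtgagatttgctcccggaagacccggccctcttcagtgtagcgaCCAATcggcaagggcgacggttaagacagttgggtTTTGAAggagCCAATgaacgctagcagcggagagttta
Kif11, the kinesin that pushes spindle poles apart, on chr19:37376272-37376401, plus strand: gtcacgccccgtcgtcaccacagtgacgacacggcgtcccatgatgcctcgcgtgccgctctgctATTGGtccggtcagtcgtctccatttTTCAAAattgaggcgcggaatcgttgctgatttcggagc
Nusap1, a microtubule-binding spindle protein, on chr2:119618188-119618317, plus strand, with neither motif: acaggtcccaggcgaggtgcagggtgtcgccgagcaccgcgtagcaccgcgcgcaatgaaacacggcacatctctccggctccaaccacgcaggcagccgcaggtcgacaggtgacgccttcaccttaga

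TTTGAA was present in 27 of the 35 promoters (77.1%), against 20.2% of the 27025 genes with a window. CCAAT was present in 28 of the 35 (80%), against 41.1% of all genes. Both stood in 23 of the 35 (65.7%), against 7.97% of all genes. Over the 37 windows of these genes, 28 of the 39 TTTGAA matches lay between -50 and 50 of the start, and 51 of the 71 CCAAT matches between -120 and -1. Ect2 and Prc1 each have overlapping windows, so their sites are counted more than once in these totals. No share over all genes was taken for the CCAAT places. At least 1 TTTGAA between -50 and 50 was held by 25 of the 35 genes (71.4%), against 5.72% of all genes. CCAAT boxes on the same strand 30 to 36 bases apart occurred in 8 of the 35 (22.9%), against 1.45% of all genes. The limits of these last measures were chosen after the positions had been seen. Ccnb2 shows that spacing plainly, with CCAAT at -87, -54 and -21 and TTTGAA at 5. In Cdk1, reversed CCAAT boxes at -80 and -48 alternate with TTTGAA at -71 and -15. Bub1, Ccnb1, Cdc25b, Cenpe and Cks2 held CCAAT without TTTGAA, and Anln, Kif15, Kif2c and Ndc80 TTTGAA without CCAAT. Birc5, Nuf2 and Nusap1 held neither in the window. GGCGGGAA was in none of the 35 (2.52% of all genes) and TTTGGCGC in 1, Kif15 (0.585% of all genes). A match of letters is not a bound site.

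**Figure D1:**
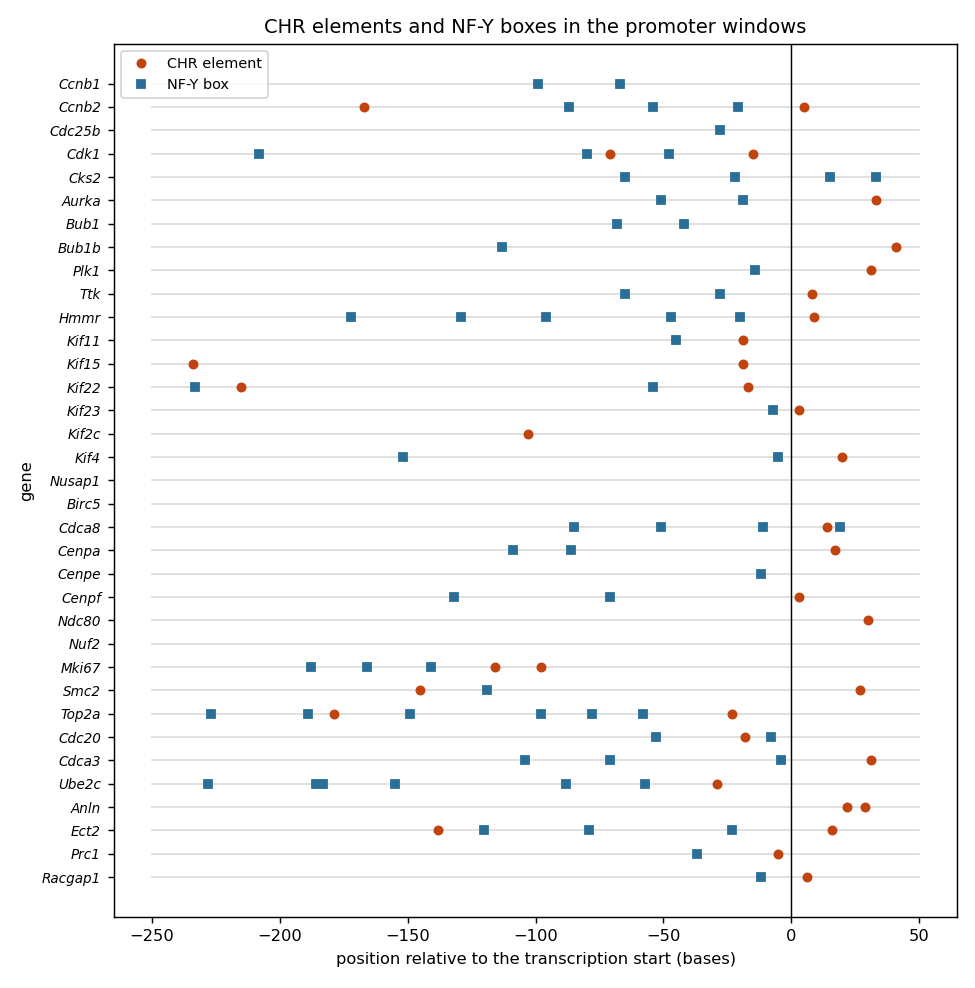
Positions of CHR elements (circles) and NF-Y boxes (squares), on either strand, in the promoter window of each of the 35 genes that have one; the x axis is the position relative to the transcription start in bases and each row is a gene, grouped by role. Where a gene has more than 1 window, 1 is drawn. CHR elements gather around the start and NF-Y boxes upstream of them, and Nusap1, Birc5 and Nuf2 have neither.

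Transcripts of the mitotic program were present in all 3 cultures, and no measured gene was 2-fold apart in any comparison. Over the 39 genes above background on all arrays, the median level was 2.10 with epoxides, 2.00 with GW9662 and 1.94 with vehicle, and 31 of them stood above the 75th percentile of every array. That percentile is over all non-control spots, detected or not, while each gene was read by its brightest probe. The range across the 3 arrays had a median of 0.156 on the log2 scale and was widest for Cdk1, at 0.62. Birc5, which encodes survivin, a subunit of the chromosomal passenger complex, read 4.71 with epoxides, 4.60 with GW9662 and 4.60 with vehicle. Mki67, whose protein coats mitotic chromosomes and serves as the Ki-67 proliferation marker, read 4.40, 4.49 and 4.38 in the same order. Both were among the brightest probes of the set, and by these probes neither differed between arrays, as scaled, by more than 2 technical SD. A second Mki67 probe went beyond that, at 0.22 for GW9662 over vehicle. So did Birc5 once a trend in probe GC content and level, described below, was taken out. It was then at 0.18 for epoxides over vehicle and 0.17 for epoxides over GW9662. Levels of different genes come from different probes and are not set against each other.

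Dim readings were few. Aurkb, the kinase of the chromosomal passenger complex, was above background with epoxides only (-4.67) and not with GW9662 (-5.36) or vehicle (-5.46). A dim array was set at its lowest level flagged as well above background, or at its own level if that is higher. Aurkb was then 1.28-fold higher with epoxides than with GW9662 and 1.12-fold higher than with vehicle. These folds are not strict lower limits. On the GW9662 array Cenpf lay above the lowest flagged level (-4.89 against -5.03) and was still not flagged. The only Aurkb probe holds 20% G and C bases. All measured genes with probes of 20 to 25% had a median log2 ratio of 0.53 for epoxides over vehicle. Cenpf, a kinetochore protein, read -5.43 with epoxides, -4.89 with GW9662, where it was not above background, and -4.54 with vehicle. By these readings it was 1.28-fold lower with GW9662 than with vehicle. Cdc25c, a phosphatase that activates Cdk1, was dim but above background on every array, at -2.81, -2.93 and -2.99, as was the checkpoint kinase Ttk, at -3.25 with epoxides, -3.16 with GW9662 and -3.35 with vehicle.

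**Figure D2:**
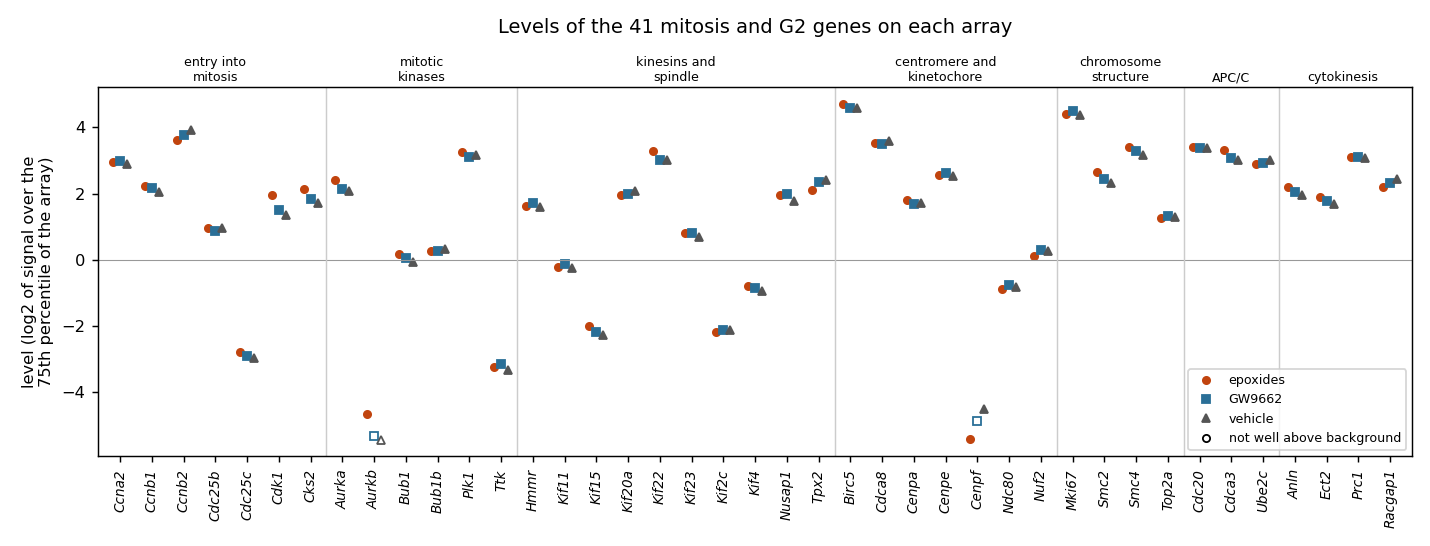
Level of each of the 41 genes (log2 of signal over the 75th percentile of the array, y axis) with epoxides (circles), GW9662 (squares) and vehicle (triangles), 1 array each, grouped by role; open symbols are readings not well above background. The 3 symbols of a gene nearly coincide for most genes, and the dim readings of Aurkb and Cenpf sit lowest.

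With epoxides against vehicle, the mitotic genes leaned slightly upward while genes in general leaned downward. Of 40 genes measured on both arrays, 28 had a ratio above 0, against 38.9% of the 15812 measured genes, and their median log2 ratio was 0.07, against -0.07 for all measured genes. None was 2-fold higher (0.215% of all measured genes) or 2-fold lower (2.07%). A log2 ratio of 0.32 or more was reached by 3 of them, Cdk1, Cks2 and Aurka (5.26% of all measured genes), and 1, Cenpf, was lower by at least as much (20.5%). More than 2 technical SD higher were 14 (16.1% of all measured genes) and lower 4 (36.8%). The comparisons with epoxides and with GW9662 use the same vehicle array. Ratios in both moved with the GC content of the probe, so values are also given with a smooth trend in probe GC content and level taken out of each array (called trend-removed); over all measured genes, 50.9% of the trend-removed epoxide ratios were above 0, with a median of 0.00.

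Genes of entry into mitosis lay higher with epoxides in 6 of 7 cases, with a median log2 ratio of 0.17; trend-removed, 5 of 7 were above 0, with a median of 0.07. Cdk1 read 1.969 with epoxides, 1.496 with GW9662 and 1.351 with vehicle, a log2 ratio of 0.62 over vehicle. As scaled, the epoxide array stood apart from the other arrays, which differed by 0.14. The Cdk1 probe holds 18.3% G and C bases, and trend-removed its ratio of epoxides over vehicle was -0.13. Cks2, a small subunit of Cdk1 complexes, read 2.13, 1.83 and 1.72, a log2 ratio of 0.42 for epoxides over vehicle (trend-removed 0.10). Ccnb1, cyclin B1, read 2.24 with epoxides, 2.17 with GW9662 and 2.05 with vehicle (0.18 for epoxides over vehicle). Its partner gene Ccnb2 went the other way, at 3.64, 3.79 and 3.91 in the same order, a log2 ratio of -0.28. Trend-removed, Ccnb1 was at 0.03 and Ccnb2 at -0.12, the first of them under 1 technical SD from 0. As scaled, Ccna2, Cdc25b and Cdc25c had ratios between 0.01 and 0.17.

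Among the mitotic kinases, 4 of 5 measured genes were higher with epoxides (median 0.10; trend-removed, 4 of 5 and 0.20). Aurka, the kinase of the spindle poles, read 2.42 with epoxides, 2.14 with GW9662 and 2.07 with vehicle, a log2 ratio of 0.35 over vehicle (trend-removed 0.20). Plk1, Polo-like kinase 1, read 3.27, 3.11 and 3.17 (0.10; trend-removed 0.23). Bub1b, the checkpoint protein BubR1, had the lowest ratio of this group at -0.06, less than 1 technical SD from 0. Bub1, a spindle checkpoint kinase, is printed on the array as 10 copies of 1 probe, so its spot error can be seen directly. Its copies ran from 0.06 to 0.30 with epoxides (mean 0.16 ± 0.07 SD), from -0.07 to 0.15 with GW9662 (0.04 ± 0.08) and from -0.25 to 0.05 with vehicle (-0.09 ± 0.09). No epoxide copy fell as low as the highest vehicle copy, while the GW9662 copies overlapped both. How often the copies of other probes separate in this way was not counted. Over all measured genes, 16.1% were more than 2 technical SD higher with epoxides than with vehicle and 36.8% lower. The Bub1 probe holds 35% G and C bases, and trend-removed its ratio of epoxides over vehicle was 0.10. Paired copy by copy, epoxides over vehicle ran from 0.20 to 0.33 (mean 0.25 ± 0.05 SD, n = 10 copies) and GW9662 over vehicle from 0.06 to 0.21 (0.13 ± 0.05). All 10 copies read the same RNA sample, so they show the precision of the arrays and not the spread between cultures.

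**Figure D3:**
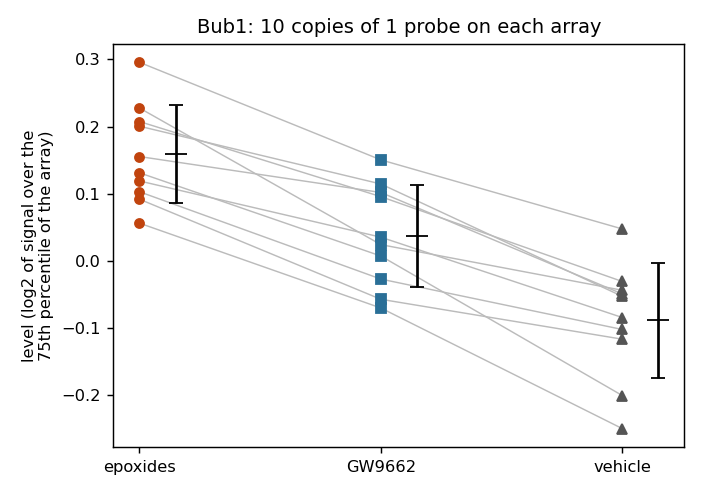
Level of the 10 copies of the Bub1 probe (log2 of signal over the 75th percentile of the array, y axis) with epoxides, GW9662 and vehicle, with lines joining the same copy and bars for the mean and SD over copies. Copies lie from 0.06 to 0.30 with epoxides, from -0.07 to 0.15 with GW9662 and from -0.25 to 0.05 with vehicle.

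Kinesins and spindle proteins had a median log2 ratio of 0.09 for epoxides over vehicle, with 7 of 10 above 0 (trend-removed, 0.13 and 8 of 10). Kif22, a kinesin that binds chromosome arms, was the highest of them, at 3.30 with epoxides, 3.03 with GW9662 and 3.03 with vehicle (0.27; trend-removed 0.14). Tpx2, the activator of Aurora A on spindle microtubules, was the lowest, at 2.10, 2.35 and 2.41 (-0.31; trend-removed -0.20). Kif15 (0.27), Nusap1 (0.18), Kif4 (0.14) and Kif23 (0.14) lay above 0, and Hmmr and Kif11 (0.03 each) at it. Kif2c (-0.06) and Kif20a (-0.12) lay below.

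At the centromere and kinetochore 3 of 7 epoxide ratios were above 0, with a median of -0.08, against 38.9% and -0.07 for all measured genes. The direction turned with the trend removed, when 5 of 7 were above 0 with a median of 0.06. Cenpf had the lowest ratio of all 40 genes, -0.89, from the dim readings given above. Birc5 (0.10), Cenpa, the histone H3 variant of centromeres (0.09), and Cenpe, a kinetochore kinesin (0.02), were above 0. Ndc80 (-0.08) and Nuf2 (-0.13), partners in the complex that grips microtubules, and Cdca8, the passenger protein borealin (-0.09), were below. As scaled, no gene of this group apart from Cenpf was more than 2 technical SD from 0. Trend-removed, Birc5 (0.18) and Cenpa (0.19) were higher by more than that.

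Of the genes of chromosome structure, Smc2 and Smc4, the ATPase subunits of condensin, were both higher with epoxides. Smc2 read 2.64 with epoxides, 2.45 with GW9662 and 2.33 with vehicle (0.31), and Smc4 read 3.40, 3.30 and 3.17 (0.23); trend-removed, they were at -0.16 and 0.10. Top2a, which untangles sister chromatids (-0.03), and Mki67 (0.02) were within 1 technical SD of 0. Of the 3 genes around the anaphase-promoting complex, Cdca3, a mitotic entry protein degraded through the complex, read 3.32, 3.07 and 3.02 (0.30), whereas Cdc20 was at 0.02 and Ube2c at -0.10. Trend-removed, Cdca3 was at -0.10 and Ube2c at 0.19, so both turned in sign. In cytokinesis, Anln, the actin-binding protein anillin, read 2.19 with epoxides, 2.03 with GW9662 and 1.94 with vehicle (0.24), and Ect2, the exchange factor that activates RhoA at the cleavage furrow, had a ratio of 0.21. Racgap1, which recruits Ect2 to the spindle midzone, read 2.20, 2.31 and 2.43 (-0.24), and Prc1, which bundles midzone microtubules, was at 0.01. Trend-removed, Anln was at 0.09, Ect2 at 0.05, Racgap1 at 0.01 and Prc1 at -0.12.

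**Figure D4:**
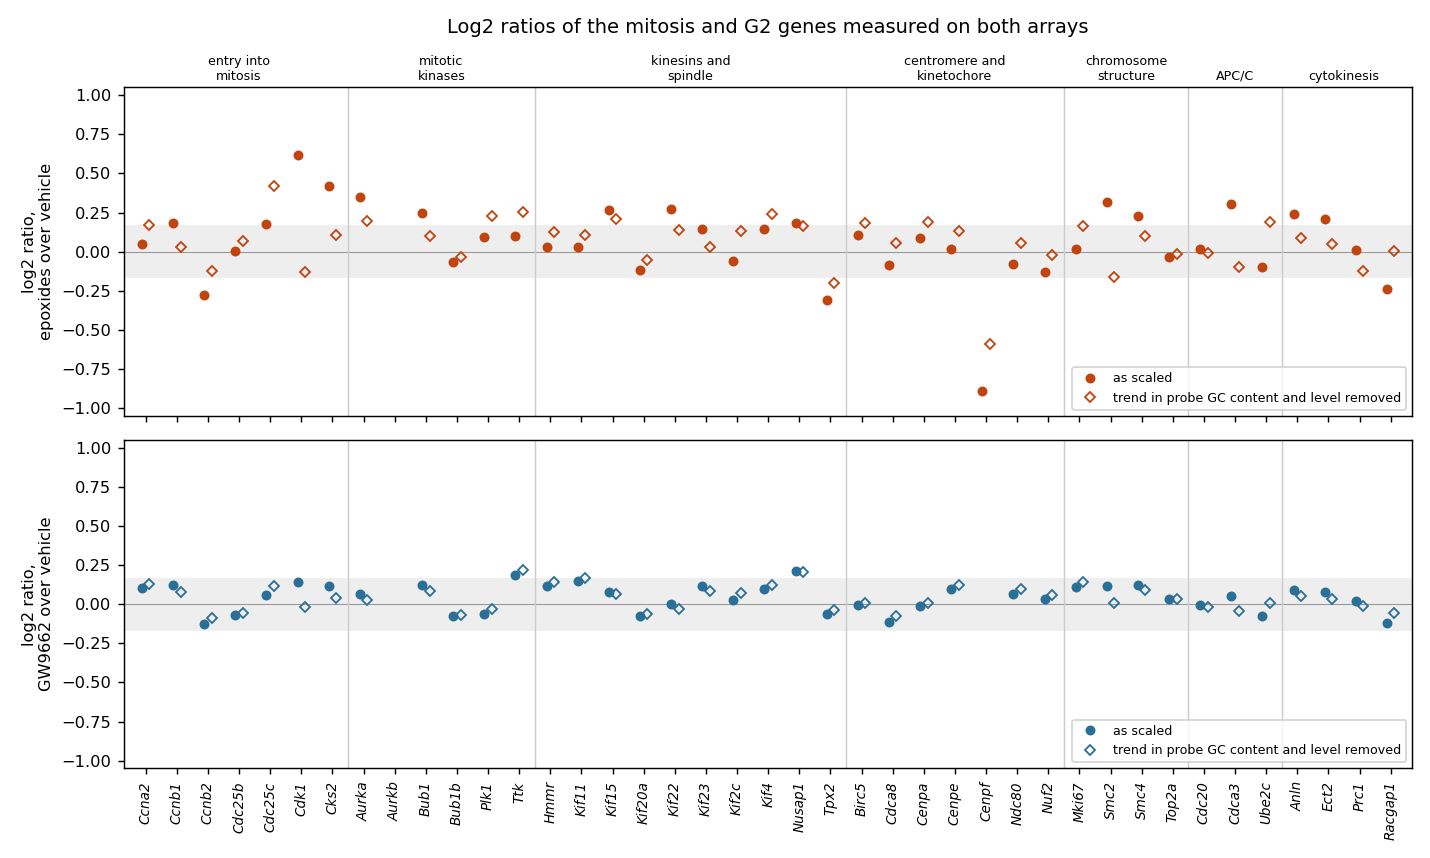
Log2 ratio of each gene measured on both arrays, for epoxides over vehicle (top) and GW9662 over vehicle (bottom), grouped by role; filled circles are the ratios as scaled, open diamonds the ratios after removal of a trend in probe GC content and level, and the grey band is 2 technical SD of a ratio. With epoxides Cdk1 (0.62), Cks2 (0.42) and Aurka (0.35) stand highest and Cenpf (-0.89) lowest, while the GW9662 ratios lie between -0.13 and 0.21.

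Base composition of the probe moved with these epoxide ratios. Over the 40 genes, the log2 ratio of epoxides over vehicle and the probe's GC content had a Pearson r of -0.647, and over all measured genes of -0.482; the points share the same arrays. All 15 mitotic genes read by a probe with under 40% G and C bases were above 0 (median 0.25), as were 70.1% of all measured genes with such probes (median 0.09). Of the 25 genes with probes at 40% or more, 13 were above 0 (median 0.01), against 19.9% of all measured genes in that class (median -0.18). The highest ratio belonged to the probe with the lowest content, that of Cdk1, at 18.3%. Trend-removed, Cdk1 came to -0.13, Smc2 to -0.16, Cdca3 to -0.10 and Cks2 to 0.10. Aurka had 0.20, Tpx2 -0.20 and Bub1 0.10, Cenpf stood at -0.59, and Cdc25c became the highest at 0.42. The set as a whole had 28 of 40 genes above 0 and a median of 0.09, against 50.9% and 0.00 for all measured genes. As scaled, Smc2 had 0.31 and Cdca3 0.30, where all measured genes with probes of 25 to 30% G and C had a median of 0.34. At 20 to 25% that median was 0.53. How well the quadratic trend holds at such low GC contents was not tested, which limits the trend-removed values of Cdk1, Smc2 and Cdca3. The part of base composition in the difference between cultures was not tested beyond this.

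**Figure D5:**
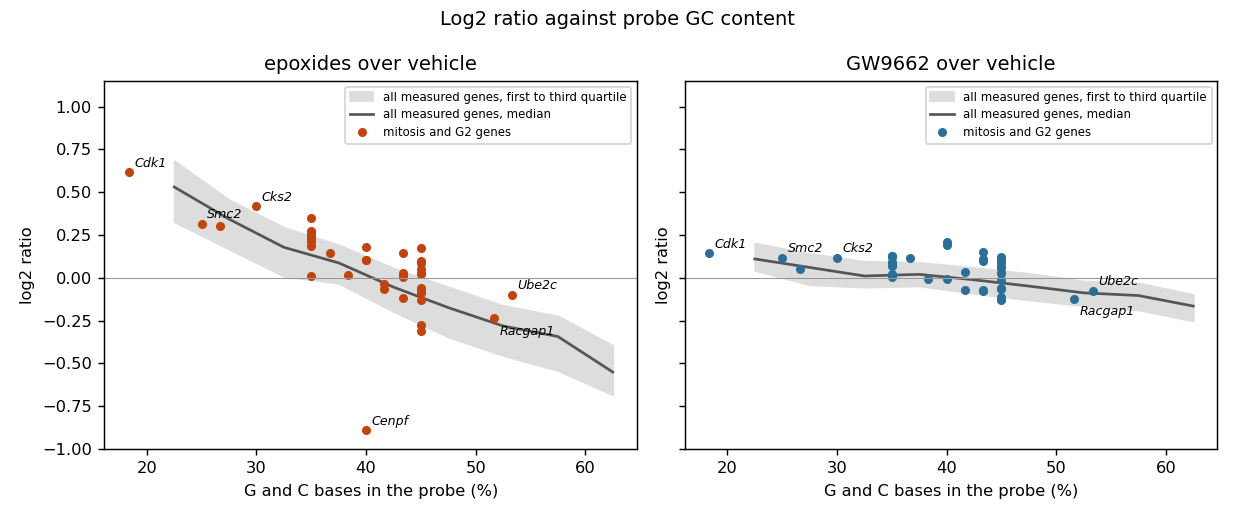
Log2 ratio (y axis) against probe GC content (percent of bases, x axis) for epoxides over vehicle (left) and GW9662 over vehicle (right); points are the mitosis and G2 genes, the line is the median and the band the interquartile range of all measured genes in bins of probe GC content. The epoxide ratios descend with GC content along with those of all genes, and the GW9662 ratios do so over a narrower range.

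GW9662 gave smaller differences. Of 39 genes measured on both arrays, 27 had a ratio above 0, against 42.2% of the 15795 measured genes, and the median was 0.07, against -0.02 for all measured genes. The ratios ran from -0.13 to 0.21. None was 2-fold higher (0.355% of all measured genes) or lower (0.469%), and none reached 0.32 in either direction (1.86% of all measured genes higher, 4.03% lower). Only Nusap1 and Ttk were more than 2 technical SD higher (6.91% of all measured genes), and none was lower by that much (14.5%). Nusap1 read 1.97 with GW9662 and 1.76 with vehicle (0.21), close to its 1.95 with epoxides. Ttk, known as Mps1, had a ratio of 0.19, and Kif11 one of 0.15. Cdk1 was at 0.14, Ccnb1, Smc2, Smc4, Cks2 and Kif23 at 0.12 each, and Mki67 at 0.11. All 4 genes of chromosome structure were above 0 (median 0.11), as were 8 of 10 kinesins and spindle genes (median 0.09), 5 of 7 genes of entry into mitosis (median 0.10), 3 of 5 mitotic kinases (median 0.07) and 3 of 4 genes of cytokinesis (median 0.05). Trend-removed, the medians were 0.06 for chromosome structure, 0.08 for kinesins and spindle, 0.04 for entry into mitosis, 0.03 for the kinases and 0.01 for cytokinesis. The lowest ratios were those of Ccnb2 (-0.13), Racgap1 (-0.12) and Cdca8 (-0.11). Of 6 centromere genes measured here 3 were above 0, with Cenpe highest at 0.09. Of the 3 genes around the anaphase-promoting complex, Cdca3 alone was above 0 (0.05), with Cdc20 at -0.01 and Ube2c at -0.07. Probe GC content went with the GW9662 ratios less steeply among all genes (Pearson correlation -0.206, against -0.490 over the 39), and with the trend removed 26 of 39 were above 0, with a median of 0.04.

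Set directly against GW9662, epoxides gave ratios above 0 in 22 of 39 genes, against 38.9% of the 16044 genes measured on both, with a median of 0.03, against -0.06 for all measured genes. None was 2-fold higher (0.206% of all measured genes) or lower (0.954%). Cdk1 alone reached a log2 ratio of 0.32 (0.47; 3.5% of all measured genes did), and none was that much lower (14.2%). More than 2 technical SD higher with epoxides were 7 genes (13.1% of all measured genes) and lower 2 (31.9%), Tpx2 (-0.25) and Nuf2 (-0.16). Aurka (0.28), Kif22 (0.27), Cdca3 (0.25) and Smc2 (0.20) were among the higher ones. Probe GC content and these ratios had a Pearson correlation of -0.766 over the 39 genes and of -0.414 over all measured genes. With the trend removed, Cdk1 came to -0.11 and Cdca3 to -0.06. The set then had 25 of 39 genes above 0 and a median of 0.017, against 50.7% and 0.003 for all measured genes.

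Ranked across the 3 arrays, 20 of the 39 genes were highest with epoxides, 12 with GW9662 and 7 with vehicle, where all 15698 genes above background on every array were highest in 31.7%, 22.03% and 46.3% of cases. The order epoxides above GW9662 above vehicle held for 15 of the 39 genes and for 20.2% of all genes. For Cdc20, Prc1 and Bub1b, among others, each step between neighbours in the order was under 1 technical SD.

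Where a gene had several probes, they did not always tell the same story. At least 2 probes above background on all arrays were held by 9 genes, and all their probes had the same sign in 4 of the 9 for epoxides over vehicle, in 9 of 9 for GW9662 over vehicle and in 3 of 9 for epoxides over GW9662. The brightest Cdk1 probe and a second one at the same place in the gene, also of 18.3% G and C but dim (-3.05 with epoxides, -3.26 with GW9662, -4.12 with vehicle), gave 0.62 and 1.07 for epoxides over vehicle. The remaining Cdk1 probe, dim and of 45% G and C, gave -0.26, and read -4.45, -4.12 and -4.19. As scaled, Ube2c gave -0.10 and -0.17 for epoxides over vehicle by its 2 probes, with the first turning to 0.19 when the trend was removed. Tpx2 gave -0.31 and, on a dim probe, -0.26. Mki67 gave 0.02 and 0.11, and for GW9662 over vehicle 0.11 and 0.22. Birc5 gave 0.10, -0.04 and 0.05, Cdca8 gave -0.09 and 0.02, and Kif2c gave -0.06 and 0.20. The Racgap1 probe used gave -0.24 at 51.7% G and C, whereas a probe carrying the same gene name gave 0.26 at 35%; the design places that probe on a different chromosome from the gene (mm9), so it may read another locus. The same holds for the other probes named Ccnb1, placed on chromosome 7 where the gene is on chromosome 13, which gave 0.04 and 0.10.

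Position on the array was set beside the ratios because copies of a probe had been seen to disagree more often in a band of rows in the middle of the array, which ends at row 400 of 532. For epoxides over vehicle, 20 genes read in that band had a median log2 ratio of 0.02, with 15 above 0, and 20 read elsewhere 0.10, with 13 above 0. For GW9662 over vehicle the medians were 0.07 for 19 genes in the band and 0.07 for 20 elsewhere. Over all measured genes, ratios of GW9662 over vehicle ran from -3.36 to 3.14 in the band and from -0.83 to 1.53 elsewhere. With the band left out, 3 of 9924 genes were 2-fold higher with GW9662 and 0 lower, against 56 and 74 of 15795. For epoxides over vehicle these counts were 14 and 121 of 9927, against 34 and 327 of 15812. Cdk1, Aurka, Tpx2, Cdca3, Cenpf and Aurkb were read within it, and Cks2, Ccnb2, Smc2, Kif22, Racgap1 and Nusap1 outside it.

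The promoter classes were set beside the ratios. For epoxides over vehicle, the 23 measured genes with both motifs had a median log2 ratio of 0.03 and the 12 without both 0.14. With the trend removed the medians were 0.05 and 0.10. For GW9662 over vehicle the medians were 0.04 for 22 genes with both and 0.09 for 12 without. No test of these gaps was possible.

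Further genes of the same phase were centred much as the 41 genes were for epoxides over vehicle, and closer to 0 for GW9662 over vehicle. Of 66 measured genes out of 67 further mitosis and G2 genes, 39 were above 0 for epoxides over vehicle (median 0.06) and 35 for GW9662 over vehicle (median 0.00). The shares over all measured genes were 38.9% and 42.2%. Trend-removed, the counts were 45 (median 0.08) and 35 (median 0.00), where the 41 genes had medians of 0.09 and 0.04. For epoxides over GW9662, 45 of the 66 were above 0 (median 0.05), against 22 of 39 (median 0.03) among the 41. Knl1, the kinetochore scaffold, read -0.58 with epoxides, -1.07 with GW9662 and -1.45 with vehicle (0.87 for epoxides over vehicle). Sgo2a, a shugoshin that protects centromeric cohesin, read -1.33, -1.33 and -0.57, lower on both treated arrays by -0.76. Gtse1, a microtubule-binding G2 protein, had 0.73 for epoxides over vehicle, and 0.14 once the trend was removed, on a probe of 21.7% G and C. Ncapg, a condensin subunit, was the one gene of this list 2-fold apart: it read -2.89 with epoxides, -1.89 with GW9662 and -3.54 with vehicle, a log2 ratio of 1.65 for GW9662 over vehicle and of 0.65 for epoxides over vehicle. Troap (-0.72) and Arhgap11a (0.45) came next for GW9662 over vehicle. These 6 genes were all read in the middle band of rows.

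Of the 16 transcription factors that act on mitotic promoters, 10 were above 0 for epoxides over vehicle (median 0.11; trend-removed, 12 and 0.07) and 9 for GW9662 over vehicle (median 0.01). Foxm1, the activator of G2 genes, read 0.57 with epoxides, 0.44 with GW9662 and 0.59 with vehicle, and Mybl2, which encodes B-MYB, read 2.25, 2.26 and 2.44. As scaled, neither was above vehicle on a treated array, and Foxm1 with epoxides was within 1 technical SD of vehicle. The Mybl2 probe holds 53.3% G and C bases, and its GW9662 ratio of -0.18 came to -0.11 with the trend removed. The lowest trend-removed epoxide ratio over vehicle among the 16 was -0.06. E2f4, a repressor subunit of DREAM, read -1.12, -1.59 and -1.81 (0.68 for epoxides over vehicle), on a probe of 20% G and C whose ratio came to 0.07 with the trend removed. E2f5 (0.48), Lin54, the CHR-binding subunit (0.31), and E2f7 (0.22) were the next highest for epoxides over vehicle (trend-removed, 0.56, 0.16 and 0.07), and E2f5 (0.24), Rbl2 (0.23) and E2f4 (0.22) for GW9662 over vehicle.

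Genes of the earlier phases were set beside these. Of 29 measured DNA replication and S phase genes, 14 were above 0 for epoxides over vehicle (median -0.03; trend-removed, 17 of 29 and 0.01), against 38.9% and a median of -0.07 for all measured genes. For GW9662 over vehicle 4 of the 29 were above 0, with a median of -0.10, while the 39 mitotic genes had 27 above 0 and a median of 0.07, and all measured genes 42.2% and -0.02; with the trend removed these were again 4 of 29 (median -0.08) and 26 of 39 (median 0.04). Tyms, thymidylate synthase, read -2.39 with GW9662 and -2.18 with vehicle (-0.20), Mcm3, a subunit of the replicative helicase, 4.33 and 4.51 (-0.18), and Gins2 and E2f1 also had -0.18. None of 6 measured G1 cyclins and kinases was above 0 for GW9662 over vehicle (median -0.10; trend-removed, 1 of 6 and -0.09), led by Myc (-0.30), cyclin D3 gene Ccnd3 (-0.25) and Cdk2 (-0.18). For epoxides over vehicle 2 of the 6 were above 0, with Ccnd3 lowest at -0.32 (trend-removed -0.20). Of 16 measured cyclin-dependent kinase inhibitors and p53 arrest genes, 8 were above 0 for epoxides over vehicle (median -0.01; trend-removed, 5 of 16 and -0.05) and 8 for GW9662 over vehicle (median -0.01). Cdkn1a, the p21 inhibitor and a p53 target, read 3.29 with epoxides, 3.43 with GW9662 and 3.66 with vehicle, ratios of -0.37 and -0.24 over vehicle (trend-removed, -0.13 and -0.17). Gadd45b, a stress gene, had -0.35 and -0.21 in the same comparisons (trend-removed, -0.24 and -0.19). Cdkn2c, the p18 inhibitor of Cdk4 and Cdk6, was higher with epoxides (0.42; trend-removed 0.27), and Btg2, an antiproliferative gene, lower with GW9662 (-0.28; trend-removed -0.31). With 1 array a group, whether the mitotic genes differ from these lists beyond the spread between cultures cannot be tested.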

How the data were processed

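RNA of 3 cultures was measured on 3 one-colour Agilent arrays of 60-base probes, all on 1 slide and read in 1 scan, so no batch could be tested. Per the file headers, the deposited gProcessedSignal is a linear intensity written by Agilent Feature Extraction 11.5.1.1 after background subtraction and spatial detrending, and gMeanSignal and gBGMedianSignal are intensity values before that. The authors' deposited value table holds a linear ratio: each column equals the processed intensity over an array's 75th percentile, without centring of genes. Its column medians were 0.0500 for epoxides, 0.0413 for GW9662 and 0.0524 for vehicle, and which sample the treated columns belong to is unknown.

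Here, levels were log2 gProcessedSignal minus the log2 75th percentile of the array's non-control spots. Non-uniform or population outlier spots (221 with epoxides, 251 with GW9662, 230 with vehicle) were left out and copies of a probe averaged. Probes were named through RefSeq accessions for 28330 of 39429 probes and otherwise by the file's gene name; names are those of the array design. A gene was read by its brightest probe, counted as measured when over 0.5 of its copies were well above background on each array of the comparison, and was called at 2-fold. Promoters are from RefSeq (GRCm38.p6); probe places are those of the files (mm9). The members and lists were chosen with earlier results of these data known. Values are given for the genes farthest from 0 in each role, those at least 1.25-fold apart, those with several probes and up to 4 genes of each other list per comparison. Foxm1, Mybl2 and a few others were added after their values were seen. The alternatives tried were background correction by normexp (offset 50; limma 3.58.1 in R 4.3.3), cyclic loess, quantile normalization, scaling on detected probes, the value table, the mean of detected probes, no filter, only brighter genes, outlier spots kept, array rows 181 to 400 left out, a quadratic trend in GC content and level removed, and 1.5-fold. Python 3.11.15 was used, and the scripts were tested on simulated data.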

Additional observations from a re-analysis of the deposited data

How the results depend on the processing

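No paired analysis was possible because each group has 1 array, and there was no replicate to leave out. The median log2 ratio of the mitosis and G2 genes stayed positive under every alternative for epoxides over vehicle (0.05 without the middle rows of the array, up to 0.12 with cyclic loess) and for GW9662 over vehicle (0.03 to 0.08). For epoxides over GW9662 it ran from -0.03 in the value table, whose treated columns are exchanged, to 0.06. Without those rows, where 23 genes were left, those above 0 numbered 14 for epoxides against vehicle, 15 for GW9662 against vehicle and 12 for epoxides against GW9662; with the trend in GC content and level also removed, 17 (epoxides over vehicle) and 14 (GW9662 over vehicle). Fewer genes tested accounts for part of these counts. At 1.5-fold in place of 2-fold, 2 genes were called for epoxides over vehicle. They were Cdk1, higher (0.62, trend-removed -0.13), and Cenpf, lower (-0.89, from dim readings). The share of all measured genes at 1.5-fold is not given. Removal of the trend kept the sign of 30 of 40 genes for epoxides against vehicle, 32 of 39 for GW9662 against vehicle and 26 of 39 for epoxides against GW9662. Over all genes, the 2-fold calls for epoxides over vehicle numbered 34 higher and 327 lower, against 63 and 140 with quantile normalization, 55 and 184 with cyclic loess, and 60 and 114 with the trend removed; quantile normalization moved the all-gene median to 0.01, from -0.07. Signal near background limits Aurkb, Cenpf, Cdc25c and Ttk.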
